A study of Mus musculus with 2 samples.

Results

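The genes described here are the 3 TGF-beta ligands Tgfb1, Tgfb2 and Tgfb3, the receptors Tgfbr1, Tgfbr2 and Tgfbr3, the latency protein gene Ltbp1, the activator gene Thbs1 and the TGF-beta-induced matrix gene Tgfbi. These 9 genes were taken by symbol from the 32285 genes of the deposited tables, and they held 543878 unique molecular identifiers (UMIs, each a counted RNA molecule) in the retained cells. Single-cell RNA sequencing was performed on cells digested from the calvaria of C57BL/6 mice (C57BL/6J in the study's methods) around a central bone defect 7 days after injury, with mice about 2 months old and a defect of 1.8 mm. The 2 libraries were 1 from mice given 100 μL of 10% DMSO intraperitoneally (vehicle control) and 1 from mice given gambogic amide (GA), a small molecule agonist of the nerve growth factor receptor TrkA, at 1.2 mg/kg in 10% DMSO. In both groups daily injection started 24 h before the defect was made and went on for 1 week, and each library pooled 5 mice. With 1 library per group there was no replicate, so no test between GA and control was possible, and every interval below is a 95% interval for counting error only.

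TGF-beta is secreted as an inactive complex in which the ligand is held by its own propeptide, and latent TGF-beta binding proteins such as the product of Ltbp1 tether that complex to the matrix. Integrins, proteases and thrombospondin-1, the product of Thbs1, can release the active ligand. The ligand then brings together the type II receptor (Tgfbr2) and the type I receptor (Tgfbr1), which phosphorylate SMAD proteins, while the coreceptor betaglycan (Tgfbr3) presents ligand, and Tgfb2 in particular depends on it. Bone matrix is a large store of TGF-beta, and the pathway is known for its roles in osteoprogenitor recruitment, fibrosis and macrophage behaviour after injury.

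The 3 genes below carried the contrast described in this report, between a ligand found in nearly every cell class (Tgfb1) and a ligand and a latency protein found mainly in the mesenchymal lineage (Tgfb2 and Ltbp1), and the 150 bases before each transcription start are shown for that reason. They were taken from RefSeq (build GRCm38.p6), which listed promoters for 6 of the 9 genes in the table used, Tgfb3, Tgfbr3 and Thbs1 being the others. The windows are chr7:25686852-25687001 on the plus strand for Tgfb1, chr1:186705990-186706139 on the minus strand for Tgfb2 and chr17:75005379-75005528 on the plus strand for the upstream start of Ltbp1. Capitals mark matches, on either strand, to the GC box GGGCGG, the E box CACGTG, the TATA box TATAAA and the cAMP response element TGACGTCA.
Tgfb1 promoter: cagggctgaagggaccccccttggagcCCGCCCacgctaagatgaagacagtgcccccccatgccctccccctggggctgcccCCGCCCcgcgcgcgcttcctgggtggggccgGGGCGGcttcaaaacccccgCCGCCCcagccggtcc
Tgfb2 promoter: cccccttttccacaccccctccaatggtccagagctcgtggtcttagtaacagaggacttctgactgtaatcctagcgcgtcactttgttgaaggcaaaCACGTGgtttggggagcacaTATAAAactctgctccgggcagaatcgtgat
Ltbp1 promoter: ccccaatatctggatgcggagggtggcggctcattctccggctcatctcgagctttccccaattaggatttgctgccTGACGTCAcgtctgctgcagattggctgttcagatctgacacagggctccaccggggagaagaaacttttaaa
The Tgfb1 window held 4 GC boxes and no TATA box, the Tgfb2 window held 1 TATA box and 1 E box, and the Ltbp1 window held 1 cAMP response element. Of all 32851 promoters in that table, 28.6% held a GC box in the same 150 bases, 7.57% a TATA box, 4.30% an E box and 1.36% a cAMP response element. An AP-1 site (TGANTCA) was searched as well, was in none of the 8 windows of these genes, and was in 4.24% of all promoters. A match is a description of letters and was not tied to any factor here.

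After removal of poor barcodes and doublets, 7555 control and 8376 GA cells remained of 8718 and 9322 barcodes, with medians of 16336 and 10929.5 UMIs per cell. The libraries shared 23 barcodes, 19 of them among the retained cells. Cells were clustered without these 9 genes and without 58 other genes of the pathway that are described further below. They were named "X-like" from marker lists, which gave 17 classes and left 97 cells unnamed, and 13 classes had at least 30 cells in both libraries. Mesenchymal-like and osteoblast-like cells together are called the mesenchymal lineage. It made up 23.7% of control cells and 10.6% of GA cells, and its cells were deep, with medians of 50711 and 50019 UMIs. Neutrophil-like cells were 27.6% of control and 52.8% of GA cells, and macrophage or monocyte-like cells 24.1% and 16.1%. Levels are given as UMIs per 1000000 UMIs of a class (CPM). These are 3′ UMI counts that were not divided by transcript length, so levels are compared between classes and libraries, not between genes.

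The ligands came from different cells. Tgfb1, the ligand most associated with immune cells and platelets, was found in all 17 classes. In the control library its level was 335 CPM (interval 320.3 to 349.6) in B-like cells, 313 (308 to 319) in macrophage or monocyte-like cells, 299 (285 to 313) in dendritic-like cells and 281 (267 to 294) in HSC-like cells, a class of Kit and Mpo-expressing hematopoietic progenitors. It was 76.2 CPM (74.5 to 77.9) in the mesenchymal lineage as a whole but 226.99 (211 to 244) in its osteoblast-like cells, and 73.7 (69.5 to 78.05) in neutrophil-like cells. Thus, Tgfb1 was several-fold lower in neutrophil-like and mesenchymal-like cells than in the mononuclear classes, and the intervals of the macrophage, dendritic and HSC-like classes overlapped with their neighbours in that order. The GA library gave a like picture, with 330.0 CPM in B-like, 296 in macrophage or monocyte-like, 333 in dendritic-like, 250.5 in HSC-like, 71.5 in mesenchymal lineage and 55.2 in neutrophil-like cells.

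Tgfb2 was, by contrast, a mesenchymal transcript. Its level was 365 CPM (361 to 369) in the control mesenchymal lineage and 249.7 (245 to 254) in the GA lineage. Pericyte or smooth muscle-like cells, of which there were 49 and 23, were at 209.6 and 222 CPM, and endothelial-like cells at 29.3 and 66.3 CPM. In B-like cells, which are not known as a source of Tgfb2, it was 1.48 and 0.305 CPM, and macrophage or monocyte-like cells (1.36 and 1.66 CPM) and neutrophil-like cells (0.954 and 0.373 CPM) were near that level. Schwann-like (53.1 CPM, from 18 cells) and erythroid-like cells (23.6 CPM) of the control library were the other classes above 20 CPM. With every cell thinned to 2000 UMIs, a Tgfb2 UMI was found in 41.2% (38.9 to 43.5) of control and 27.2% (24.3 to 30.3) of GA lineage cells, against 0.696% and 0% (0 to 0.631) of B-like cells. Without thinning these shares were 90.3% and 83.1% in the lineage, at medians of 50711 and 50019 UMIs, and 1.39% and 0.342% in B-like cells at 5934 and 6472 UMIs.

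Tgfb3 followed Tgfb2 in its distribution. Its level in the mesenchymal lineage was 41.1 CPM (39.8 to 42.4) in control and 32.2 (30.6 to 33.9) in GA. Pericyte or smooth muscle-like cells had 48.6 and 22.97 CPM, the second value from 23 cells. No named class outside the mesenchymal lineage and mural cells exceeded 6 CPM in either library. Across the 34 class and library profiles, the log2 levels of Tgfb2 and Tgfb3 had a Pearson r of 0.89, the highest among the 36 pairs of these 9 genes, whereas Tgfb1 and Tgfb2 gave −0.28. The profiles share libraries and differ widely in depth, so these correlations are descriptions.

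**Figure D1:**
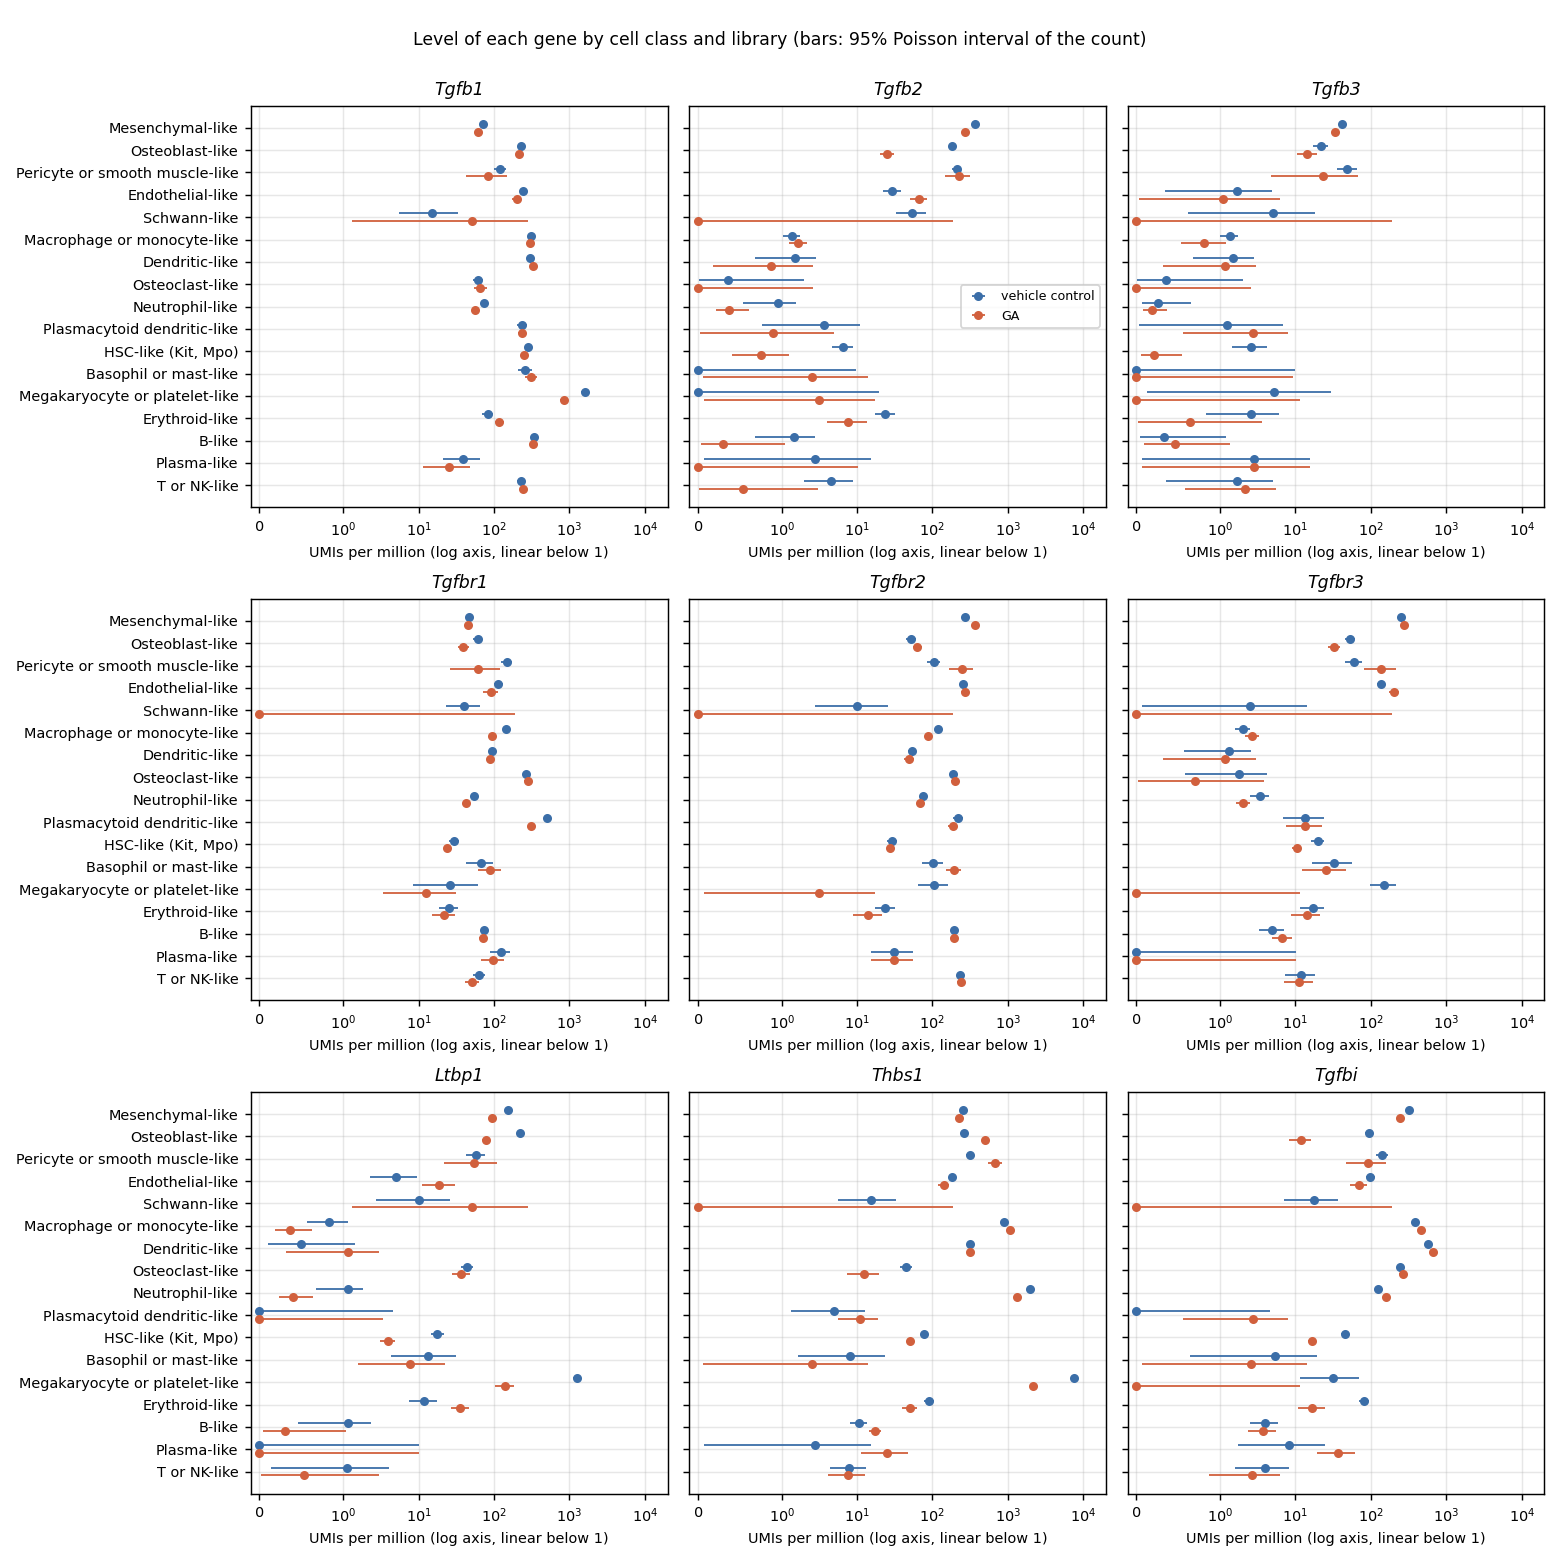
Level of each of the 9 genes (CPM, log axis that is linear below 1) in the 17 named classes of the vehicle control (blue) and GA (red) libraries, with 95% Poisson intervals of the count as bars. Tgfb1 lies above 40 CPM in nearly all classes, whereas Tgfb2 and Tgfb3 are highest in the mesenchymal and mural classes and Tgfbr3 in the mesenchymal class, and Thbs1 is highest in megakaryocyte, neutrophil and macrophage classes.

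The receptors were spread more widely than Tgfb2 and Tgfb3. Tgfbr1, the type I receptor, was highest in plasmacytoid dendritic-like cells, with 509 CPM (461 to 560.0) in control and 313 (281 to 348) in GA, and next in osteoclast-like cells, with 268 (249.6 to 288) and 279.8 (253 to 309). Macrophage or monocyte-like cells had 144 and 94.5 CPM, and the mesenchymal lineage 46.9 and 45.4 CPM. Tgfbr2, the type II receptor that binds ligand, was present in the mesenchymal lineage at 259 CPM (256 to 262) in control and 343 (338 to 349) in GA. Comparable levels were found in endothelial-like (251 and 268), T or NK-like (232 and 236), B-like (191 and 194) and osteoclast-like cells (187 and 201). Osteoblast-like cells were lower for Tgfbr2 than the rest of their lineage, at 51.5 and 63.1 CPM, and HSC-like cells had 29.2 and 27.3 CPM. Thus the mesenchymal lineage, the main site of Tgfb2, was among the higher classes for Tgfbr2 and among the lower ones for Tgfbr1.

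The coreceptor Tgfbr3 was mainly a stromal and vascular transcript. The mesenchymal lineage had 241 CPM (237 to 244) in control and 259 (254 to 264) in GA, endothelial-like cells 136 and 204, and pericyte or smooth muscle-like cells 59.4 and 138. Macrophage or monocyte-like cells had 1.99 and 2.68 CPM and B-like cells 4.93 and 6.71 CPM. Megakaryocyte or platelet-like cells of the control library were at 148 CPM (98.1 to 213), but all 28 UMIs came from 1 of the 21 cells, and the 48 GA cells held 0 UMIs, which is a level of 0 to 11.4 CPM. A small exception among myeloid cells were the non-classical monocyte-like cells (31 cells in each library), with 95.7 and 134 CPM, while no other macrophage subpopulation exceeded 10 CPM.

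Cells with both Tgfbr1 and Tgfbr2 UMIs, the receptor pair needed for a canonical response, were counted after thinning to 2000 UMIs. In the mesenchymal lineage 4.03% (3.17 to 5.05) of control and 3.61% (2.48 to 5.06) of GA cells had both, and in B-like cells 5.74% and 5.15%. In macrophage or monocyte-like cells the shares were 5.56% (4.55 to 6.73) and 4.29% (3.26 to 5.52), and in neutrophil-like cells 2.38% and 1.66%. At 2000 UMIs the intervals of the libraries overlapped in the lineage and in the macrophage class. At 5000 UMIs they did not overlap in macrophage or monocyte-like cells, with 19.6% (17.8 to 21.6) and 14.2% (12.3 to 16.2). The shares moved with depth: unthinned, 73.5% and 70.96% of lineage cells had both, and 61.8% (59.5 to 64.01) and 48.7% (46.03 to 51.4) of macrophage or monocyte-like cells, at medians of 21239 and 21254.5 UMIs. Plasmacytoid dendritic-like cells had the pair in 18.3% (10.1 to 29.3) of control and 14.5% (7.17 to 25.04) of GA cells at 2000 UMIs. Osteoclast-like cells came next in control (14.04%, from 57 cells) with overlapping intervals. In GA osteoclast-like cells had 7.14% (from 28 cells), beside 7.69% in pericyte or smooth muscle-like cells (from 13 cells).

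Ltbp1 was mesenchymal, with an exception in the few megakaryocyte or platelet-like cells. It reached 156 CPM (154 to 159) in the control lineage and 92.5 (89.8 to 95.3) in the GA lineage, 57.2 and 53.6 CPM in pericyte or smooth muscle-like cells and 44.03 and 36.9 in osteoclast-like cells. Megakaryocyte or platelet-like cells, 21 in control and 48 in GA, had 1254 (1100 to 1424) and 139 CPM (102 to 186). Their median depth was only 1376 and 2592 UMIs. That class held far more stromal RNA in the control library, with Col1a2, a fibroblast collagen gene, at 1808 and 58.8 CPM in control and GA, while its own marker Pf4 was at 13587 and 28223 CPM. The part of the stromal RNA in these values was not tested, and no ratio is drawn from so few cells. Thbs1 and Tgfb1 were also higher in this class than in any other of the 17 in both libraries, at 7426 and 2133 CPM for Thbs1 and 1592 and 839 CPM for Tgfb1.

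Thbs1 was otherwise highest in myeloid cells. Neutrophil-like cells had 1991 CPM (1969 to 2013) in control and 1338 (1327 to 1349) in GA, and macrophage or monocyte-like cells 893 (884 to 902) and 1062 (1051 to 1073). The mesenchymal lineage was at 254 and 242 CPM, dendritic-like cells at 319 and 312, and B-like cells at 10.5 and 17.4. After thinning to 2000 UMIs a Thbs1 UMI was found in 61.5% of control and 52.5% of GA neutrophil-like cells, in 48.5% and 43.7% of macrophage or monocyte-like cells, and in 2.78% and 2.40% of B-like cells. Without thinning the B-like shares were 7.11% and 10.3% at medians of 5934 and 6472 UMIs, against 70.9% and 65.4% of neutrophil-like cells at 5092 and 7056 UMIs. Tgfbi, whose matrix product is induced by TGF-beta in many cells and is also a monocyte gene, was highest in dendritic-like cells (564 and 675 CPM). It was at 387 and 458 CPM in macrophage or monocyte-like cells, 308 and 224 in the mesenchymal lineage and 124 and 157 in neutrophil-like cells.

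The shares of each gene's UMIs by class show which cells set its level in the whole sample. The mesenchymal lineage held 98.7% of control and 98.1% of GA Tgfb2 UMIs, 96.4% and 96.2% of Tgfb3, 97.1% and 94.7% of Tgfbr3 and 96.1% and 93.8% of Ltbp1 UMIs. For these 4 genes the sample as a whole read out almost only the lineage. It held 72.7% and 64.2% of Tgfbr2, but only 25.8% and 13.5% of Tgfb1. Macrophage or monocyte-like cells held 44.5% and 39.00% of Tgfb1 and 41.2% and 33.3% of Tgfbr1, and HSC-like cells, with fewer cells than either, held 5.68% of control and 18.5% of GA Tgfb1. The Tgfb1 level of HSC-like cells was 281 CPM in control and 250.5 in GA, and their median depth was 20905 and 47475 UMIs. In control, Thbs1 had a source shared by macrophage (37.6%), neutrophil (32.02%) and mesenchymal cells (25.5%), and in GA neutrophil-like cells led with 53.5%. Neutrophil-like cells were 27.6% of control and 52.8% of GA cells, while their Thbs1 level was 1991 CPM in control and 1338 in GA. Both values were above the level of all cells (530 and 668 CPM), so their Thbs1 share exceeded their part of all UMIs. The reverse held for the mesenchymal lineage, with Thbs1 at 254 and 242 CPM. For Tgfbi the lineage gave 56.99% of the UMIs in control and 29.8% in GA, and macrophage or monocyte-like cells 30.1% and 42.5%. The lineage's Tgfbi level (308 and 224 CPM) was near that of all cells (287 and 223 CPM), so its share was near its part of all UMIs. Each share follows the class's part of all UMIs as well as its level of the gene.

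**Figure D2:**
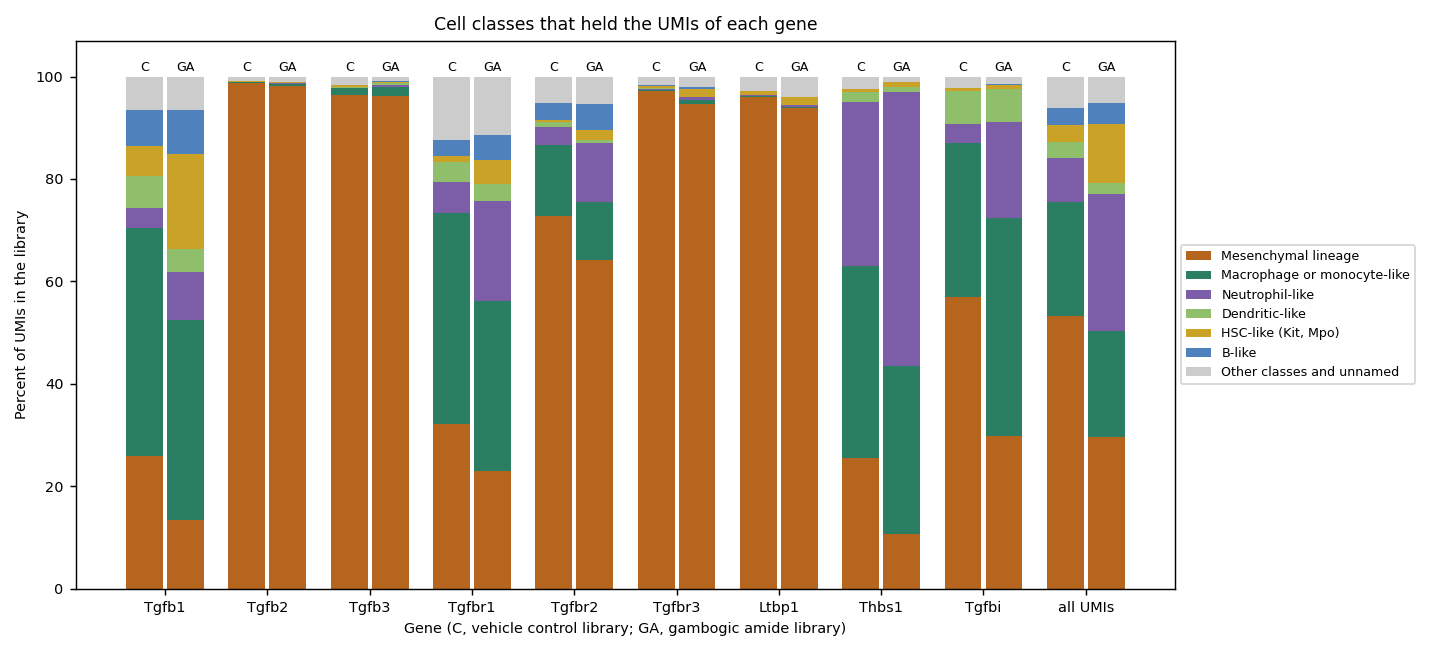
Percent of each gene's UMIs that came from each cell class, and at the right the same for all UMIs, as stacked bars for the vehicle control and GA libraries. The mesenchymal lineage fills over 93% of the bars of Tgfb2, Tgfb3, Tgfbr3 and Ltbp1 in both libraries. The neutrophil part of Thbs1 is 32.02% in control and 53.5% in GA, where the neutrophil part of all UMIs is larger too.

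Over all retained cells, 4 of the 9 genes were past 1.5-fold between the libraries, all lower in GA, beside 21.0% of all 18392 genes with at least 50 UMIs that were lower and 9.85% that were higher. Tgfb2 was at 197 CPM in control and 75.3 in GA, a log2 ratio of GA over control of −1.38 (−1.41 to −1.35). Ltbp1 went from 86.3 to 29.2 CPM (−1.56, −1.61 to −1.52), Tgfb3 from 22.7 to 9.91 (−1.19, −1.28 to −1.11) and Tgfbr3 from 132 to 81.02 (−0.70, −0.73 to −0.67). These were the 4 genes whose UMIs lay almost wholly in the mesenchymal lineage, the class that was smaller in the GA library. Tgfb1 was level at 157 CPM in both (0.00, −0.02 to 0.03). Tgfbr1 (77.7 and 58.7 CPM, −0.41), Tgfbr2 (189.5 and 158, −0.26), Tgfbi (287 and 223, −0.37) and Thbs1 (530.3 and 668, 0.33) stayed within 1.5-fold, with only Thbs1 of these 4 higher in GA.

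When the classes of the GA library were given the weights they had in control, Ltbp1 alone remained past 1.5-fold, at −0.75. On that scale Tgfb2 was at −0.49 and Tgfb3 at −0.34, Tgfbr3 turned to 0.16 and Tgfbr2 to 0.30, and Thbs1 was at −0.10. The median of the 9 log2 ratios over all cells was −0.41, beside −0.09 for all genes. Fewer mesenchymal cells recovered and fewer present in the defect cannot be told apart in these libraries.

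**Figure D3:**
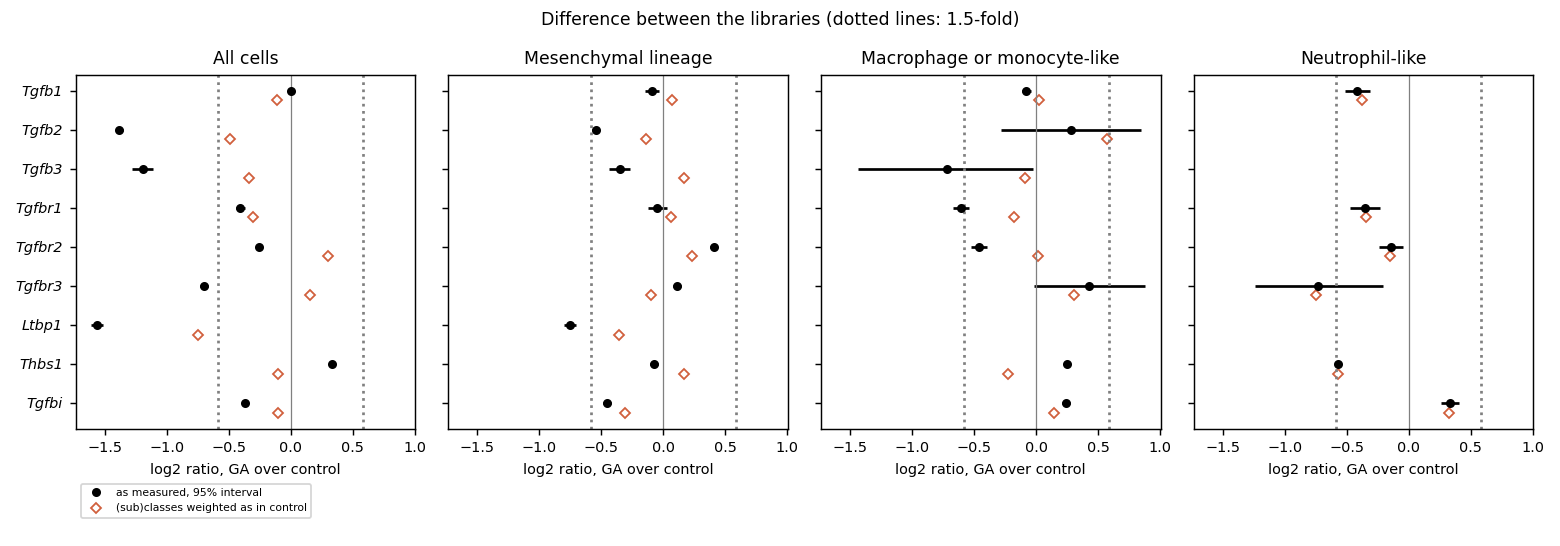
Log2 ratio of GA over control for each gene over all cells, in the mesenchymal lineage and in the macrophage or monocyte-like and neutrophil-like classes (black points with 95% counting intervals), with the ratio after weighting classes or subclusters as in control (open diamonds) and dotted lines at 1.5-fold. Over all cells Tgfb2, Tgfb3, Tgfbr3 and Ltbp1 lie left of the line, and after weighting by class only Ltbp1 does.

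Within the mesenchymal lineage, 1 of the 9 genes, Ltbp1, was past 1.5-fold, beside 7.65% of 15734 genes lower in GA and 6.95% higher. Its level of 156 CPM in control and 92.5 in GA gave a log2 ratio of −0.75 (−0.80 to −0.71). Tgfb2 came next at −0.55 (−0.58 to −0.52), followed by Tgfbi at −0.46 (−0.49 to −0.42) and Tgfb3 at −0.35 (−0.44 to −0.27). The receptors did not share that direction, with Tgfbr2 at 0.41 (0.38 to 0.43), Tgfbr3 at 0.11 (0.08 to 0.14) and Tgfbr1 at −0.05 (−0.12 to 0.03). Hence the latency gene, Tgfb2 and Tgfb3 were lower and the type II receptor was higher in the GA lineage, with only Ltbp1 past the fold. When the subclusters of the lineage were weighted as in control, a choice made after seeing the data, Ltbp1 was at −0.36, Tgfb2 at −0.14, Tgfb3 at 0.17, Tgfbi at −0.31 and Tgfbr2 at 0.23, and none was past 1.5-fold. Ltbp1 was also at −0.36 in the lineage drawn with these 9 genes and the other pathway genes allowed among the variable genes. That setting named 1201 control and 468 GA cells mesenchymal-like. The makeup of the lineage differed between the libraries. Fibroblastic progenitor-like cells, marked by Eln, Mgp and Foxc2, were 20.9% of lineage cells in control (375 cells) and 5.94% in GA (53 cells). The osteoblast-like subcluster was 4.18% and 9.87%, and an unnamed subcluster led by Xirp2 and Dmkn 9.92% (178 cells) and 19.6% (175 cells). The part of each of these shifts in the weighted ratios was not tested.

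Levels varied widely among the 7 lineage subpopulations with at least 30 cells in both libraries. Tgfb2 in control ran from 149 CPM in osteoblast-like cells (75 cells) and 151 in a subcluster led by Xirp2 and Dmkn to 515 in multilineage progenitor-like cells and 524 in a subcluster led by Tnc and Tnn. Ltbp1 was highest in multilineage progenitor-like cells, named from a marker list that includes Scx, Clec11a, Fmod, Megf6 and Matn4, with 262 CPM in control and 235 in GA. It was lowest in the Xirp2 subcluster, with 32.7 and 16.9 CPM. Tgfbr2 and Tgfbr3 peaked instead in the stem 2-like cells, fibroblast-like cells marked by Cd34, Clec3b and Ly6a, with 433 and 597 CPM for Tgfbr2 and 445 and 389 for Tgfbr3.

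Ltbp1 was lower in GA in 7 of the 7 subpopulations with the interval below 0 in each, and the ratio was past 1.5-fold in 3. These were osteoblast-like cells (194 and 63.00 CPM, −1.62) and the subclusters led by Tnc (125 and 41.2 CPM, −1.60) and Xirp2 (−0.95), while the ratio nearest 0 was −0.16 (−0.24 to −0.08) in multilineage progenitor-like cells. In stem 1-like cells, a subpopulation marked by cell division genes, Ltbp1 was at 91.7 and 65.2 CPM (−0.49, −0.71 to −0.27). Tgfb2 was lower in 6 of the 7 and higher in fibroblastic progenitor-like cells, at 393 CPM in control and 567 in GA (0.53, 0.44 to 0.62). In that same subpopulation Tgfbr3 was at 76.6 and 153 CPM (1.00, 0.81 to 1.18). It joined a subcluster led by Ptgds (121 control and 28 GA cells) and one led by Eln (254 and 25 cells). The part of that mix in these ratios was not tested. Tgfbr2 was above 0 in 6 of the 7 with the interval above 0 in 5, as in stem 2-like cells (0.46, 0.42 to 0.51), yet never past the fold. Thbs1 was split, higher in 3 and lower in 4, with 278 and 480.3 CPM in osteoblast-like, 408 and 558 in multilineage progenitor-like and 309 and 467 in fibroblastic progenitor-like cells. It was lower in both stem-like subpopulations, with 112 and 73.4 CPM in stem 1-like and 296 and 216 in stem 2-like cells. The difference between subpopulations was not tested.

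**Figure D4:**
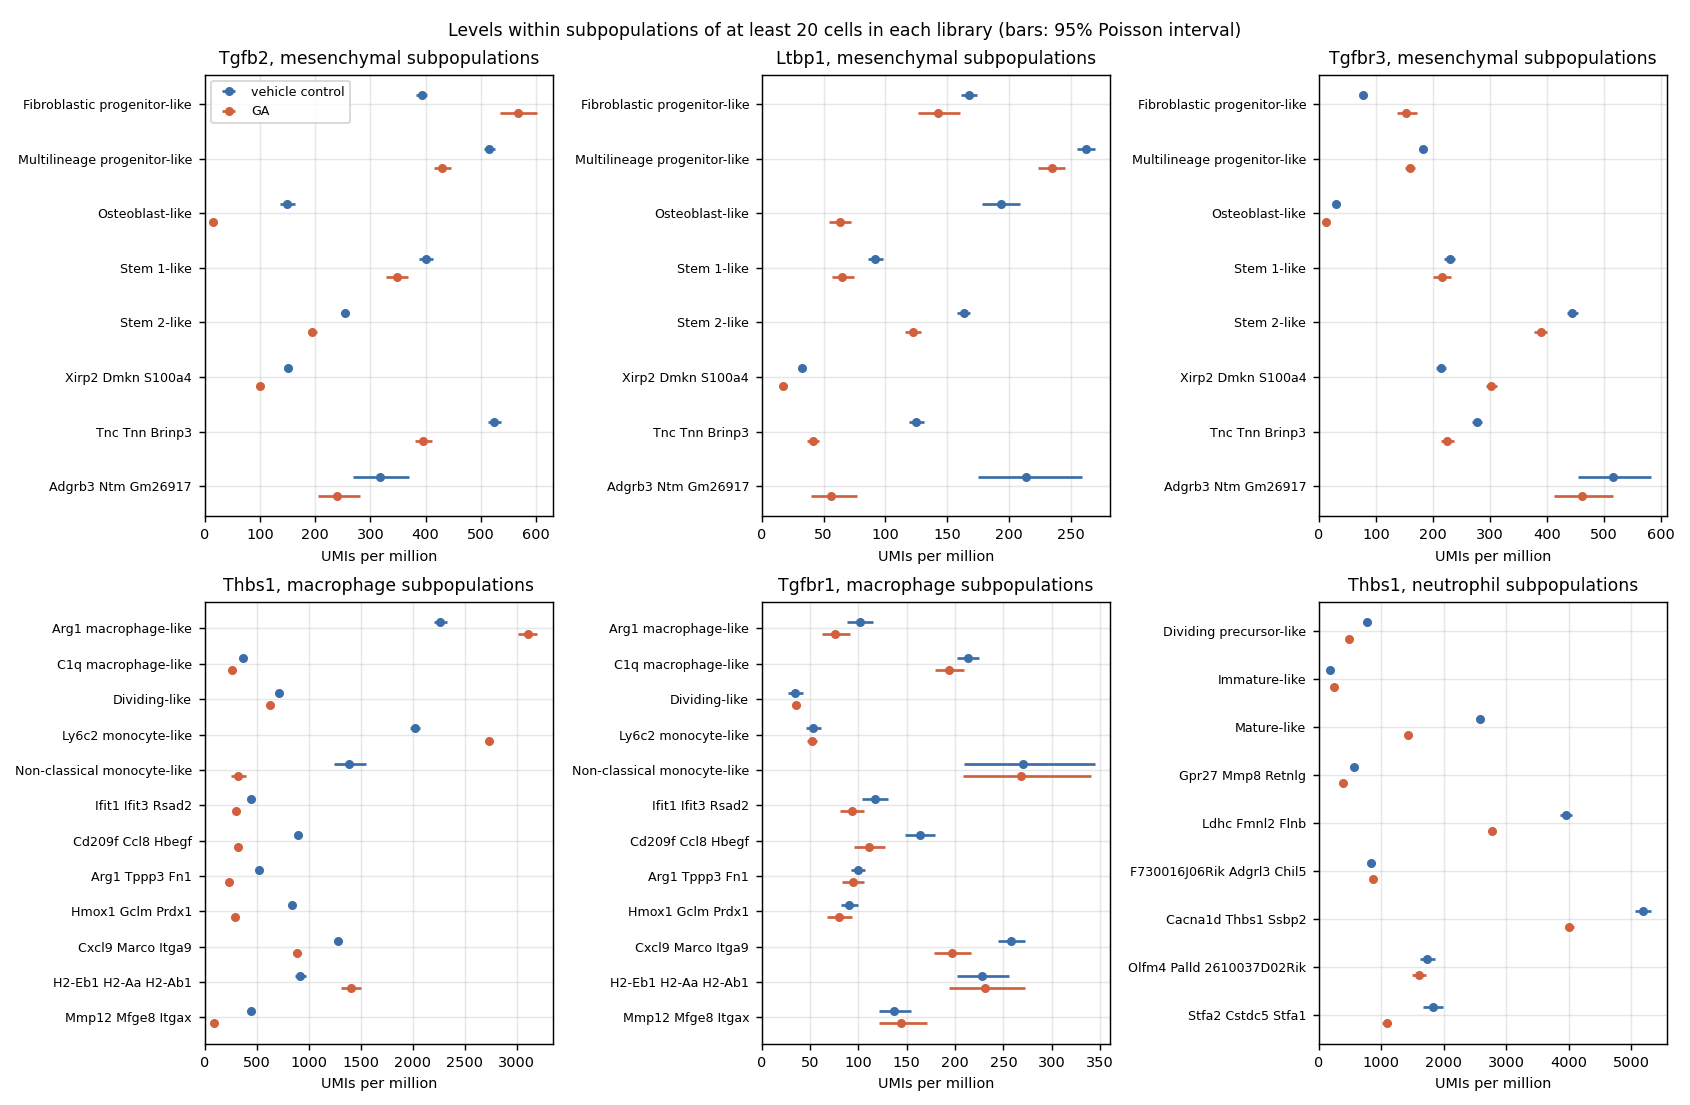
Levels (CPM, with 95% Poisson intervals of the count as bars) of Tgfb2, Ltbp1 and Tgfbr3 in mesenchymal, Thbs1 and Tgfbr1 in macrophage and Thbs1 in neutrophil subpopulations with at least 20 cells in each of the vehicle control (blue) and GA (red) libraries. Tgfb2 and Ltbp1 vary several-fold among mesenchymal subpopulations, and Thbs1 in control is at 366 CPM in C1q macrophage-like and 2265 in Arg1 macrophage-like cells.

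Osteoblast-like cells showed the widest gaps within the lineage. In this class, defined over all cells by Bglap, Ibsp, Dmp1 and other bone matrix genes and holding 92 control and 96 GA cells, 7 of 9 genes were past 1.5-fold, beside 24.3% of 8124 genes in either direction. Tgfb2 was at 181 CPM (167 to 196) in control and 25.2 (20.1 to 31.2) in GA, a log2 ratio of −2.85 (−3.19 to −2.51). Tgfbi was at 93.6 and 11.7 CPM (−3.00), Ltbp1 at 219 and 78.4 (−1.48) and Tgfbr3 at 53.2 and 32.4 (−0.71). The ligand, its coreceptor, the latency protein gene and Tgfbi were thus all lower in the GA osteoblast-like cells. Tgfb3 (21.6 and 14.4 CPM, −0.59) and Tgfbr1 (60.5 and 39.4, −0.62) were just past the fold as well. Thbs1 was the only gene past it in the other direction, at 260.0 and 491 CPM (0.92, 0.80 to 1.04). Tgfb1 (226.99 and 212 CPM) and Tgfbr2 (51.5 and 63.1) were within it. The median log2 ratio of all genes in this class was −0.21, and with it subtracted Tgfb3, Tgfbr1 and Tgfbr3 were within 1.5-fold.

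Markers of other mesenchymal cells moved with this result. In osteoblast-like cells Col3a1, a fibroblast collagen gene, was at 3243 and 712 CPM in control and GA, Postn at 387 and 40.9 and the division gene Mki67 at 28.4 and 2.10. The bone genes Bglap (32472 and 41718 CPM) and Dmp1 (254 and 846) were higher in GA, Ibsp was lower (4611 and 2882), and Prrx1 was near level (197 and 204). Their part in the result was not tested. The Tgfb2 ratio rested on how the class was drawn: with log-normalized input to the clustering (52 control and 76 GA cells) it was 0.92. With these 9 genes and the other pathway genes allowed among the variable genes (58 and 87 cells) it was 1.05. Ltbp1 turned to 0.37 with the log-normalized input, and the count of 7 genes past the fold became 4 under either choice and 3 with cells thinned to 2000 UMIs. The osteoblast-like subcluster found within the lineage, of 75 control and 88 GA cells, gave −3.34 (−3.80 to −2.91).

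In macrophage or monocyte-like cells, 2 of the 9 genes were past 1.5-fold, both lower, beside 7.75% of 12895 genes lower and 11.9% higher in GA. They were Tgfbr1, with 144 CPM in control and 94.5 in GA (−0.61, −0.67 to −0.54), and Tgfb3 (1.34 and 0.814 CPM), which was low here as in B-like cells (0.329 and 0.457 CPM) and turned to 1.43 with cells thinned to 2000 UMIs. The count of 2 ran from 0 to 5 under other settings. Tgfbr2 was at −0.46 (−0.53 to −0.39), Thbs1 at 0.25 (0.23 to 0.27), Tgfbi at 0.24 (0.21 to 0.27) and Tgfb1 at −0.08 (−0.12 to −0.04). Tgfbr1 and Tgfbr2 were therefore lower and Thbs1 and Tgfbi higher in the GA class as a whole, while Tgfbr3, at 1.99 and 2.68 CPM, was at 0.43 (−0.02 to 0.88).

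Within the macrophage subpopulations most of these differences were smaller or turned. With subclusters weighted as in control, Tgfbr1 was at −0.18, Tgfbr2 at 0.02, Tgfbi at 0.14 and Thbs1 at −0.22, and none of the 8 genes with at least 50 UMIs was past 1.5-fold. Tgfbr1 was below 0 in 9 of the 11 subpopulations with at least 30 cells in each library and past 1.5-fold in none. Thbs1 was lower in 8 of the 11, past 1.5-fold in 4. In C1q macrophage-like cells, named from markers that include C1qa and Mrc1, it was at 366 CPM in control and 261 in GA (−0.49, −0.60 to −0.38). In non-classical monocyte-like cells it was at 1389.7 and 316 (−2.14, −2.51 to −1.78). It was higher in Ly6c2 monocyte-like cells, named from markers that include Ly6c2, Ccr2 and Vcan, at 2026 and 2732 CPM (0.43, 0.39 to 0.47). Arg1 macrophage-like cells also had more Thbs1 in GA, at 2265 and 3105 CPM (0.46, 0.40 to 0.51). A larger subcluster that was led by Arg1, Tppp3 and Fn1 and left unnamed (280 and 129 cells) went the other way, with Thbs1 at 524 and 235 CPM (−1.16, −1.28 to −1.04). So did an unnamed subcluster led by Hmox1 (148 and 63 cells), at −1.51 (−1.64 to −1.38). The mean log2 fold of the Arg1 list's markers was 0.88 and 0.96 in these unnamed subclusters, against 0.76 in the Arg1 macrophage-like cells. The third subpopulation in which Thbs1 was higher was a subcluster led by the antigen presentation gene H2-Eb1, at 921 and 1406 CPM (0.61). So the 2 subpopulations with the most Thbs1 were both higher in GA, and Ly6c2 monocyte-like cells were also a larger part of the class, 14.4% in control and 24.8% in GA, against 17.7% and 11.7% for C1q macrophage-like cells. Tgfbr1 was highest in non-classical monocyte-like cells (270.4 and 269 CPM) and lowest in dividing (34.5 and 35.4) and Ly6c2 monocyte-like cells (53.3 and 51.9), and the dividing cells were 4.02% and 13.1% of the class.

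Neutrophil-like cells had 6 of the 9 genes with at least 50 UMIs, of which 1, Tgfbr3, was past 1.5-fold, beside 10.4% of 10893 genes lower and 1.61% higher. Tgfbr3 was at 3.37 and 2.03 CPM, below its level in B-like cells. Thbs1, at 1991 and 1338 CPM, gave −0.57 (−0.59 to −0.55), just inside the fold. Tgfb1 was at −0.42 (−0.52 to −0.31), Tgfbr1 at −0.35 (−0.47 to −0.23) and Tgfbr2 at −0.15 (−0.24 to −0.05), and Tgfbi was at 0.33 (0.26 to 0.41). The median of all genes in this class was −0.16, so the ratios of Tgfb1, Tgfbr1 and Thbs1 lay below that of a typical gene and Tgfbi above it.

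Thbs1 was lower in GA in 7 of the 9 neutrophil subpopulations and past 1.5-fold in 3. In mature neutrophil-like cells, which express Cxcr2 and Il1b and made up 55.2% of the control and 53.02% of the GA class, it was at 2584 and 1419 CPM (−0.87, −0.90 to −0.83). Dividing precursor-like cells had 775 and 488 CPM (−0.67, −0.73 to −0.60). The highest levels were in a subcluster that Thbs1 itself helped to lead, with Cacna1d, at 5186 and 4007 CPM (−0.37, −0.42 to −0.33). The clear exception was the immature neutrophil-like subpopulation, with the granule genes Ngp, Camp and Ltf, where Thbs1 was lowest of the 9 and stood at 173 and 247 CPM (0.51, 0.28 to 0.75). Tgfbi was highest in mature neutrophil-like cells (295 and 370.2 CPM) and was at 18.1 and 21.03 in immature and 19.2 and 23.98 CPM in dividing precursor-like cells.

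In most of the smaller classes, few genes were past 1.5-fold. Plasmacytoid dendritic-like cells (71 and 70 cells), the class with the most Tgfbr1, had it at 509 CPM in control and 313 in GA (−0.70, −0.91 to −0.49), the only gene of 3 past the fold, beside 18.0% of all genes. Basophil or mast-like cells had Tgfbr2 past it (101.2 and 193 CPM, 0.93, 0.35 to 1.53) of 3 genes, beside 22.0%. Both values rest on a single small class in each library. Under other settings the first ratio ran from −0.74 to −0.21 and the second from 0.017 to 1.03. Osteoclast-like cells (58 and 30 cells), bone-resorbing cells with high Tgfbr1 and Tgfbr2, had Thbs1 past it of 6 genes (44.4 and 12.5 CPM, −1.82, −2.63 to −1.11), beside 13.2%, while their Tgfbr1 (0.06) and Tgfbr2 (0.10) were near level. B-like cells had Thbs1 past it of 5 genes (10.5 and 17.4 CPM, 0.72, 0.27 to 1.19), beside 4.49%. None of 5 genes in dendritic-like cells (beside 12.2%) and none of 3 in T or NK-like cells (beside 8.45%) was past 1.5-fold. In endothelial-like cells (42 and 52 cells) Tgfb2 was past it of 7 genes, at 29.3 and 66.3 CPM (1.18, 0.62 to 1.74), beside 18.7%. Without the 5 cells with the most Tgfb2 UMIs in each library that endothelial ratio was −0.015, and the median depth of these cells was 32978 UMIs in control and 7080 in GA.

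Erythroid-like and HSC-like cells each had 5 genes past 1.5-fold of 8, beside 15.2% and 12.4% of all genes. In HSC-like cells all 5 were lower in GA, among them Ltbp1 at 17.8 and 3.91 CPM (−2.18), Tgfb2 at 6.49 and 0.751 (−3.11) and Tgfbi at 44.9 and 16.6 (−1.43). Under another setting each, Tgfb2 (0.69 with doublets kept), Ltbp1 (0.054 with these 9 and the other pathway genes among the variable genes) and Tgfbr3 (0.040 with cells thinned) changed sign in HSC-like cells. The median depth of HSC-like cells was 20905 UMIs in control and 47475 in GA, and log-normalized clustering named no such class. In erythroid-like cells (106 and 71 cells) Tgfbi (80.98 and 16.7 CPM, −2.28) was lower, as were Tgfb2, Thbs1 and Tgfbr2, and Ltbp1 was higher (11.8 and 35.3 CPM, 1.58), but Tgfb2, Thbs1, Tgfbr2 and Ltbp1 each changed sign there under another setting. Col1a2, which neither class expresses by its known identity, was at 1244 and 685 CPM in control and GA erythroid-like cells and at 336 and 47.03 in HSC-like cells. Pf4, a megakaryocyte gene, was at 121 and 8.33 CPM in erythroid-like and 1066 and 168 in HSC-like cells. Macrophage or monocyte-like cells held Pf4 too, at 2321 and 1375 CPM. The part of RNA from other classes in these ratios was not tested. Tgfb1, which was well expressed in HSC-like cells at 281 and 250.5 CPM, was at −0.16 (−0.24 to −0.08).

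Other genes of the pathway were counted in the 3 largest populations from lists of latency and activation genes, receptors, SMADs, TGF-beta-induced genes and extracellular binders, 58 genes in all. Their ratios are for each population as a whole, without subcluster weights. Fbn1, Itgb5, Mmp14 and, for neutrophil-like cells, Fn1, Postn and Acta2 were singled out among these genes after their values were seen. Thbs2, Acta2 and Col5a1 in macrophage or monocyte-like cells were singled out in the same way. The lists themselves were chosen with earlier results of these data known, so the shares among all genes beside them are a description and no test. In the mesenchymal lineage, most of the listed genes were within 1.5-fold. Of 18 latency and activation genes 2 were higher and 3 lower in GA, beside 6.95% higher and 7.65% lower among all genes. Fbn1, which encodes the fibrillin that anchors latent complexes, was at 965 and 1529.8 CPM in control and GA, and Mmp9 at 5.40 and 16.2. Ltbp2 was at 42.2 and 26.6, Ltbp4 at 15.1 and 7.83, and the activating integrin chain Itgb8 at 7.995 and 2.08. Mmp9 is a neutrophil gene, and S100a8, a neutrophil marker, was at 73.7 and 679 CPM in the lineage.

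None of 7 other receptors and 1 of 11 SMAD genes and their inhibitors (Tgif2, 7.18 and 4.70 CPM) was past the fold in the lineage. Of 16 genes known to be induced by TGF-beta, 3 were lower and none higher, beside the same 7.65% and 6.95% of all genes. They were the contractile genes Tagln (320.0 and 149.9 CPM) and Acta2 (779 and 427), which mark myofibroblasts and mural cells, and the cell cycle inhibitor Cdkn2b (21.6 and 12.4). The other 13, among them collagen and SMAD feedback genes, were within 1.5-fold, and the list's median log2 ratio was −0.05 beside −0.02 for all genes. Of 8 binders Fmod was lower (222 and 138 CPM) and Nog, with 0.755 and 1.20 CPM, higher.

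In macrophage or monocyte-like cells taken as a whole the lists lay lower. The makeup of the class differed, with Ly6c2 monocyte-like cells at 14.4% of it in control and 24.8% in GA. Subcluster weights had moved the ratio of Tgfbr1 in this class from −0.61 to −0.18. The part of the makeup in the list ratios was not tested. Of 15 latency and activation genes measured, 7 were lower and 1 higher, beside 7.75% lower and 11.9% higher among all genes, and the median was −0.57 beside 0.10. The well-expressed members were the integrin chains Itgav (407 and 208 CPM) and Itgb5 (169.5 and 106) and the protease gene Mmp14 (227.4 and 136), all known to take part in activation. Thbs2, also among the 7, was at 6.01 and 3.77 CPM, against 9.04 and 3.05 in B-like cells. Of 14 induced genes, 6 were lower and none higher, to be read against the same shares, with a median of −0.54. Fn1, the fibronectin gene, was at 2198 and 1272 CPM, and Pmepa1, a feedback inhibitor of the pathway, at 147 and 56.5, both far above B-like cells (29.6 and 16.3 CPM for Fn1, 11.8 and 15.4 for Pmepa1). The other 4, Tagln, Postn, Acta2 and Col5a1, were at under 16 CPM in the class. Postn (15.9 and 7.33 CPM, against 13.5 and 7.32 in B-like cells) and Col5a1 (11.8 and 7.69, against 11.8 and 7.62) were near their B-like levels. Acta2 (12.7 and 7.93 CPM, against 5.10 and 1.52) and, in control, Tagln (2.26 against 0.986) were above theirs. The SMAD corepressor gene Tgif1 (139 and 88.5 CPM) was lower, and 3 of 7 binders were lower. Cd109 (29.7 and 19.00 CPM) was far above its B-like level (0.822 and 0.915), whereas Bgn (22.4 and 11.04 CPM, against 15.6 and 6.71) and Fmod (1.87 and 0.513, against 1.48 and 0.305) were nearer to theirs.

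In neutrophil-like cells 10 of 14 induced genes were lower and none higher, beside 10.4% lower and 1.61% higher among all genes, with a median of −0.86 beside −0.16 for all genes. Most of these were at levels like those of B-like cells, such as Fn1 (40.6 and 21.1 CPM) and Postn (16.9 and 7.68 CPM), and Col1a2 was at 151 and 100.2 CPM in the class. Acta2 (43.2 and 27.8 CPM, against 5.10 and 1.52 in B-like cells) and, at a low level in control, Tagln (2.80 and 0.864 CPM, against 0.986 and 0.915) were the exceptions among those 10. Of 12 latency and activation genes 3 were lower, all under 8 CPM, and the median was −0.44. Thbs2 (7.76 and 2.96 CPM, against 9.04 and 3.05 in B-like cells) and Mmp14 (6.93 and 3.10, against 12.0 and 8.69) were below their B-like levels. Itgb5 (4.07 and 2.10 CPM, against 3.45 and 1.07) was near its own in control. The type I receptor gene Acvrl1 was higher (64.9 and 97.8 CPM) and Tgif1 lower (39.99 and 23.9 CPM). Of 5 binders Bgn was lower (19.6 and 9.97 CPM, against 15.6 and 6.71 in B-like cells) and Fst higher (3.62 and 5.53 CPM, against 0.329 and 0.152).

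**Figure D5:**
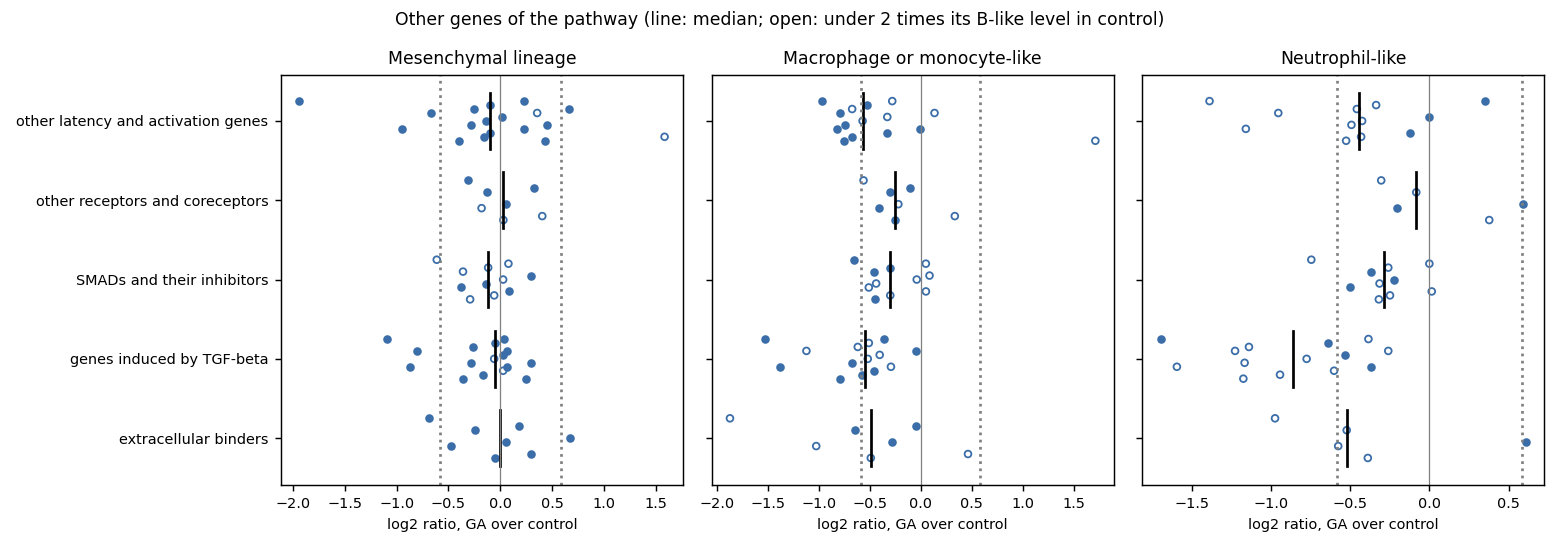
Log2 ratio of GA over control for the other pathway genes with at least 50 UMIs, by list, in the mesenchymal lineage, macrophage or monocyte-like and neutrophil-like classes, with dotted lines at 1.5-fold, a black bar at each list's median and open circles for genes under 2 times their B-like level in control. Most genes lie within the lines in the mesenchymal lineage, and those past them in macrophage or monocyte-like and neutrophil-like cells lie mainly on the lower side. Ratios are of whole populations and are not weighted by subcluster.

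Genes with the most similar distribution over the 34 class and library profiles were sought among 15318 genes. For Tgfb2 they were Igfbp5 (Pearson r 0.95 on log2 CPM with 10 added), Gfpt2 (0.94) and Mpdz (0.94), and for Tgfb3 they were Nbl1 (0.95), Steap2 (0.94) and Fbn2 (0.94). For Tgfbr3 the first was the basement membrane gene Lamb1 (0.93), followed by Mcc (0.93) and Nid1 (0.92), and for Ltbp1 the first was Cttn (0.82), a regulator of cortical actin. Tgfbi was most like the interferon-inducible gene Ifi204 (0.90). The first match was Ccdc12 (0.83) for Tgfb1, Scamp1 (0.82) for Thbs1, 1700017B05Rik (0.81) for Tgfbr1 and Foxj3 (0.83) for Tgfbr2, and for Tgfbr2 the signal transducer Smad4 (0.80) was next. Among the 9 genes themselves the next pairs after Tgfb2 and Tgfb3 were Tgfb2 and Tgfbr3 (0.75), Tgfb3 and Tgfbr3 (0.66) and Tgfbr1 and Tgfbr2 (0.60).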

How the data were processed

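Single-cell libraries of 10x Genomics type were analysed from the gene by barcode tables that the authors deposited, which hold raw UMI counts from Cell Ranger (7.0.1 in the table headers) on mm10. The kit version is not stated the same way in the sources used here, and neither are dose and duration of GA, so those of the sample labels are given. Total UMIs were 182949385 in GA and 214993030 in control. Barcodes with 500 to 140000 UMIs, 200 to 9500 genes and at most 15% mitochondrial UMIs were kept. Scrublet marked under 0.5% of barcodes as doublets in each library, so the barcodes with the highest doublet scores were removed instead, 538 in control and 660 in GA among those within these limits. Clustering used scanpy 1.11.5 (Pearson residuals, 2000 variable genes without the pathway genes, 50 components, Harmony over libraries, an exact graph of 15 neighbours, Leiden resolution 1), and mesenchymal, macrophage and neutrophil cells were clustered again. A cluster was named when at least 3 markers of a class were present in 10% of its cells at 2-fold or more, a rule set after the data were seen.

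Within each library the counts of a class were added up and scaled to that class's total UMIs (CPM), with exact Poisson intervals. Log2 ratios carry exact conditional binomial intervals and shares exact Clopper-Pearson intervals. Classes needed 30 cells in each library for a ratio, and a gene was counted as past 1.5-fold with at least 50 UMIs over both libraries. All 9 genes were named. Of the pathway lists, at most the 4 largest ratios per list and class past 1.5-fold with an interval off 0 were eligible for naming, and for similarity the 3 highest Pearson r. The 9 genes and the lists were chosen with earlier results of these data known. The ratio code was tested on simulated data.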

Additional observations from a re-analysis of the deposited data

Results flagged for a closer look

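Log2 ratios of GA over control that were past 1.5-fold and of opposite sign in different classes are given here, and whether they differ was not tested, since each class is 1 library against 1 library. Thbs1 was higher in GA in osteoblast-like cells (0.92) and B-like cells (0.72) and lower in osteoclast-like (−1.82), erythroid-like (−0.86) and HSC-like cells (−0.65). Its level was low in B-like cells (10.5 CPM in control and 17.4 in GA, from 64 and 114 UMIs). The GA osteoclast-like value rested on 18 UMIs (12.5 CPM), and the erythroid-like ratio was 1.17 under another setting. Tgfb2 was higher in endothelial-like cells (1.18) and lower in osteoblast-like (−2.85), HSC-like (−3.11) and erythroid-like cells (−1.62). Each of these Tgfb2 ratios had the opposite sign under another setting, at −0.015, 1.05, 0.69 and 0.64 in that order. Ltbp1 was higher in erythroid-like cells (1.58) and lower in HSC-like (−2.18) and osteoblast-like cells (−1.48). These Ltbp1 ratios also changed sign under another setting, to −1.86, 0.054 and 0.37 in that order. Tgfbr2 was higher in basophil or mast-like cells (0.93) and lower in erythroid-like cells (−0.74). Under another setting each, these ratios reached 0.017 and 0.23 in that order. The erythroid-like and HSC-like classes held more Col1a2 in control (1244 and 336 CPM) than in GA (685 and 47.03 CPM), and the part of that RNA was not tested.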

How the results depend on the processing

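No paired analysis was possible because each group holds 1 library, and for the same reason no library could be left out. For 30 log2 ratios past 1.5-fold, 298 values were computed under other settings: 283 kept the sign, 235 stayed past the fold and 15 had the opposite sign. These 15 were Tgfbr3 over all cells with classes weighted as in control (0.16) and Tgfb2 in endothelial-like cells without the top 5 cells (−0.015). In erythroid-like cells they were Tgfb2 (0.64), Tgfbr2 (0.23) and Thbs1 (1.17) with log-normalized clustering, Tgfbr2 without the top 5 cells (0.047), and Ltbp1 with the genes allowed among the variable ones (−1.85) or doublets kept (−1.86). In HSC-like cells the changed signs were those of Tgfb2 with doublets kept (0.69), Tgfbr3 thinned (0.040) and Ltbp1 with the pathway genes among the variable ones (0.054). The others were Tgfb3 in macrophage or monocyte-like cells thinned (1.43), and in osteoblast-like cells Tgfb2 with log-normalized clustering (0.92) or the pathway genes among the variable ones (1.05) and Ltbp1 with log-normalized clustering (0.37). The cause was not tested.

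Counts of genes past the fold that moved by over 1.5 times were as follows. Over all cells, 4 became 1 with class weights. In the mesenchymal lineage, 1 became 2 at Leiden resolution 0.5 or without the top 5 cells, and 0 with the pathway genes among the variable ones, with subcluster weights, a choice added after seeing the data, or at 2-fold. In macrophage or monocyte-like cells, 2 became 5 with doublets kept, 1 at 10% mitochondrial UMIs or with at least 200 UMIs, and 0 thinned, with subcluster weights or at 2-fold. In neutrophil-like cells, 1 became 0 with the median of all genes subtracted, without the top 5 cells, at 2-fold or with at least 200 UMIs, 2 thinned, and 3 with at least 20 UMIs or no minimum. In osteoblast-like cells, 7 became 4 with log-normalized clustering, with the pathway genes among the variable ones or with the median of all genes subtracted, and 3 thinned or at 2-fold. Receptor pair shares depended on depth: at 5000 UMIs and unthinned they were 11.2% and 73.5% (control) and 12.7% and 70.96% (GA) in the mesenchymal lineage, 19.6% and 61.8% and 14.2% and 48.7% in macrophage or monocyte-like cells, and 5.22% and 9.21% and 4.84% and 10.9% in neutrophil-like cells. With 875 control cells left unnamed at Leiden resolution 0.5, the named lineage's share of control Tgfb2 UMIs was 35.5%.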

Other observations

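Few cells carried a large part of no gene's UMIs. The 5 cells with the most UMIs of a gene held 1.08% (Tgfbi) to 4.55% (Ltbp1) of its UMIs in control and 1.42% (Tgfb1) to 8.44% (Tgfb2) in GA. Tgfb2 UMIs were found in 1786 of 7555 control and 818 of 8376 GA cells, and Tgfb1 UMIs in 5197 and 4677.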
